A study of Mus musculus with 21 samples.

Results

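The small nucleolar RNAs, small Cajal body RNAs and spliceosomal RNAs of the mouse lung were read from 115 of the 35556 probe sets of an array series on lung growth after removal of the left lung. They are all the probe sets whose annotated gene symbol starts with Snor, Scarna or Rnu, a rule on symbols alone. By prefix they are 26 Snora, 66 Snord, 4 Scarna and 18 Rnu probe sets, plus Snorc, a protein-coding gene that the rule takes in by its letters alone. Of the 115, 66 carry 1 symbol (60 distinct symbols) and 49 carry several. They are not 115 separate measurements, because 38 share all their values with another member and only 85 distinct value profiles exist. The 24 Snord116 probe sets hold 7 profiles, the 9 Rnu1b probe sets 3 and the 4 Rnu3b probe sets 1.

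Small nucleolar RNAs guide chemical modification of other RNAs, mostly ribosomal RNA. The box C/D RNAs (Snord) guide methylation of the ribose, and the box H/ACA RNAs (Snora) guide the change of uridine to pseudouridine. A few of both kinds, U3, U8, U17 and U22 among them, act in the cutting of the ribosomal RNA precursor instead. Small Cajal body RNAs (Scarna) do the same guiding for spliceosomal RNAs, which, mostly with Sm proteins, form the particles that remove introns. The Rnu symbols cover spliceosomal RNAs and also U3 and U7. In mammals most small nucleolar RNAs are cut out of introns of a host gene, while U3, U8 and most spliceosomal RNAs have promoters of their own.

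The mice were C57BL/6 males, and RNA of the right lung was hybridised to 21 Affymetrix arrays. The 7 conditions were days 3, 7, 14, 28 and 56 after left pneumonectomy, day 56 after sham surgery, and day 0 before surgery. Each condition had 3 arrays, 1 each of the whole right lung, the cardiac lobe and the medial lobe. The labels are silent on age, on pooling, on whether 1 mouse gave all 3 regions and on whether the whole lung includes both lobes, so p-values measure only the spread between these arrays. The labels describe RNA amplification from the 3' end, while the probes are annotated as a whole-transcript design. How RNAs as short as these entered the labelled material is not stated. All values are the authors' log2 RMA values, which carry no detection call. They ran from 2.98 to 14.1 with array medians of 5.98 to 6.18, and precision is limited by how few arrays there are. All 10 lung markers (surfactant, airway, type I and endothelial genes) were bright on every array, between 9.92 and 13.5. Levels of different probe sets are not set against each other.

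The letters of the small RNAs themselves are not printed. Shown first is the hairpin of the microRNA Mir6516, because of all probe sets with 1 symbol outside the members its values followed the members' mean most closely. It lies at chr11:117077348-117077457 (GRCm38.p6, plus strand, RefSeq), is 110 bases long, and has its 2 mature arms in capitals.
Mir6516: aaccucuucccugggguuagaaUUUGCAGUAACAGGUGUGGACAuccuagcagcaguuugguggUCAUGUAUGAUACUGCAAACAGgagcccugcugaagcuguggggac
The next sequences are the starts of 4 genes that hold members described below, from 40 bases before the annotated start to 20 bases from it on (RefSeq, GRCm38.p6, each on its gene's strand). They are shown because members and hosts are compared later. Capitals mark the longest unbroken run of at least 7 C or T letters that begins within 10 bases of the annotated start, a search chosen after promoters had been read. Snhg1, a non-coding host, holds Snord22 and lies at chr19:8723447-8723506 on the plus strand. Rpl27a, a ribosomal protein gene, holds Snora3 and lies at chr7:109519155-109519214 on the plus strand. Ipo7, a nuclear import receptor, holds Snora23 and lies at chr7:110018275-110018334 on the plus strand. Rps3, a ribosomal protein gene, holds Snord15a and Snord15b and lies at chr7:99483690-99483749 on the minus strand.
Snhg1: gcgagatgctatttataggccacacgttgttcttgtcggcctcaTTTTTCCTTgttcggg
Rpl27a: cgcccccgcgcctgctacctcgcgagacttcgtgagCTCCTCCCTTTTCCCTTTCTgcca
Ipo7: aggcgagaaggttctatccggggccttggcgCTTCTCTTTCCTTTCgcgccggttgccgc
Rps3: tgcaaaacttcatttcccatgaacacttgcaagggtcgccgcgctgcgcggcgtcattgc
Such a run was found in 13 of the 31 host promoters in the table (41.9%) and in 3903 of all 27025 promoters (14.4%). Rps3 has none in this window. The shares are a description, and a run is not evidence of how a gene is controlled.

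The small RNAs read higher in the whole right lung than in its lobes. In the whole lung minus the mean of both lobes, 79 of the 115 members rose and none fell (limma, Benjamini-Hochberg adjusted p under 0.05 over all probe sets). Over all probe sets 10.5% were called higher and 13.2% lower, 23.7% in either direction. The median difference of the members was 1.09 on the log2 scale, against 0.02 over all probe sets. Counted once per value profile, 66 of 85 rose. In 18 of the 115 members (15.7%), every whole lung array was above every lobe array, against 0.219% of all probe sets. How calls split over all probe sets depends on scaling, since 44.5% of all calls were higher as deposited, 16.8% after centring each array on its median and 21.8% after scaling arrays to a common median and interquartile range. The members' median was 1.004 and 1.10 under these scalings. With each array's interquartile range as a covariate it was 0.39, and 6 members were called in place of 79. In whole tissue, a change in the number of cells of a type and in RNA per cell cannot be told apart. Region is also the replicate number, so anything else that differed between the replicate sets cannot be told apart from region.

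**Figure D1:**
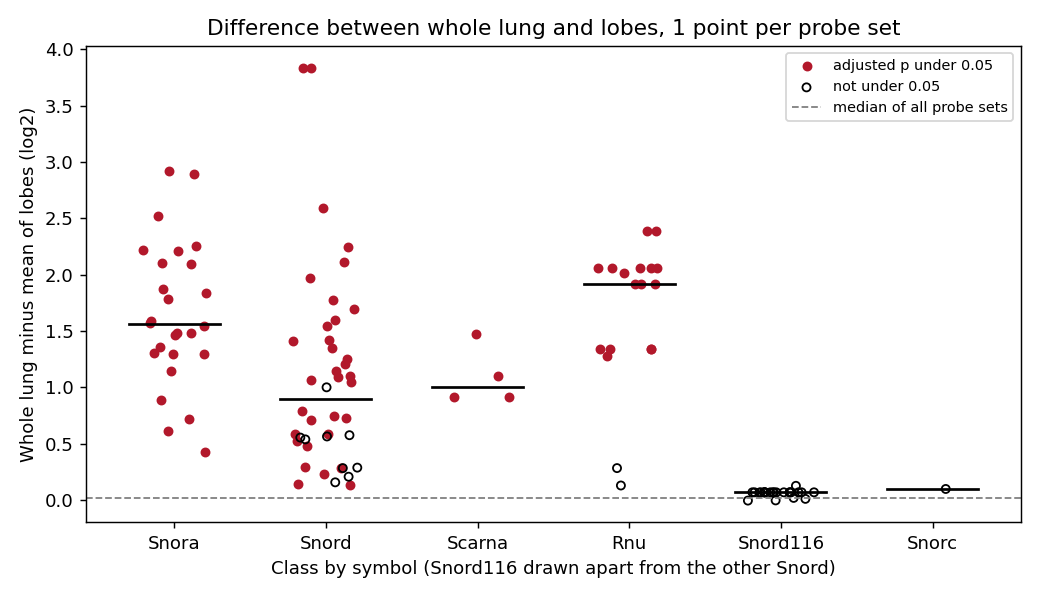
Difference between the whole lung and the mean of both lobes (vertical axis, log2) for each of the 115 probe sets, by class (horizontal axis). Filled points had an adjusted p under 0.05, short bars are class medians and the dashed line is the median of all 35556 probe sets. All 26 Snora and all 4 Scarna points are filled, and none of the 24 Snord116 points is.

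The box H/ACA RNAs rose without exception, 26 of 26 probe sets, with a median of 1.56. Snora33 had 7.34, 9.12 and 10.5 as its lowest, median and highest log2 value in the whole lung, against 5.25, 5.98 and 7.74 in the lobes. Only the highest lobe array reached into the whole lung's range. It rose by 2.90 ± 0.33 (standard error), or 7.44-fold, with a limma adjusted p of 0.000117. Snora69 had 6.51, 8.003 and 12.1 in the whole lung, against 5.90, 6.39 and 6.80 in the lobes. Its whole lung arrays spread far more widely than its lobe arrays, and it rose by 2.52 ± 0.54 (limma adjusted p = 0.00502). Snora23 had 7.94, 9.03 and 11.6 in the whole lung, against 6.88, 7.54 and 8.10 in the lobes, a rise of 2.10 ± 0.35. One of the 2 Snora3 probe sets had 10.1, 10.8 and 13.2 in the whole lung, against 8.40, 9.23 and 9.88 in the lobes, so its groups did not overlap. The other Snora3 probe set rose by 2.22 ± 0.28. Snora52, at 12.2 to 13.1 in the whole lung against 11.8 to 12.5 in the lobes, rose by 0.61 ± 0.11, and Snora75 by 0.42 ± 0.10, the smallest rise among the Snora probe sets.

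Snora73a and Snora73b are the U17 RNAs, which act in processing of the small-subunit ribosomal RNA. Snora73a had 11.96, 12.5 and 13.4 in the whole lung, against 10.4, 10.9 and 12.9 in the lobes, and rose by 1.35 ± 0.21. Snora73b rose by 1.30 ± 0.22. Both lie in the non-coding gene Snhg3.

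Of the box C/D RNAs other than Snord116, 33 of 42 probe sets rose, with a median of 0.90. Snord118 is U8, needed in frog oocytes for maturation of the large-subunit ribosomal RNAs. Its lowest, median and highest values were 8.28, 11.5 and 13.02 in the whole lung, against 5.88, 7.04 and 11.02 in the lobes. Its rise of 3.84 ± 0.55, or 14.3-fold, was the largest of all 35556 probe sets (limma adjusted p = 0.000431). The lobe value of 11.02 belongs to the day 7 cardiac lobe, and the next cardiac value was 7.07.

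Snord22 is U22, needed in frog oocytes for the small-subunit ribosomal RNA. It had 6.58, 7.70 and 9.44 in the whole lung, against 4.80, 5.42 and 6.06 in the lobes. The groups did not overlap, and it rose by 2.59 ± 0.23 (limma adjusted p = 3.63e-05). Snord85 rose by 2.24 ± 0.26 and Snord15a by 2.11 ± 0.45. Snord104 had 12.2, 12.6 and 13.2 in the whole lung, against 10.5, 11.2 and 12.6 in the lobes. Snord57 rose by 0.29 ± 0.09. Single-symbol box C/D members that were not called were Snord37, Snord38a, Snord42b, Snord53 and Snord96a. Snord53 differed by 0.54 ± 0.20 with a limma adjusted p of 0.0595.

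All 4 Scarna probe sets rose, with a median of 1.01. Scarna17, read by 2 identical probe sets, had 10.95, 11.5 and 11.7 in the whole lung, against 9.89, 10.5 and 10.8 in the lobes. Every whole lung array lay above every lobe array, and the rise was 0.92 ± 0.10. Scarna13 rose by 1.10 ± 0.26. Scarna8 rose by 1.47 ± 0.40, with a lowest value in the whole lung of 4.64 and a highest of 9.13, against 4.39 and 4.97 in the lobes.

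Of the Rnu probe sets 16 of 18 rose, with a median of 1.92. The 18 include U3 (Rnu3a and the 4 Rnu3b probe sets) and U7, so the count is not of spliceosomal RNAs alone. The 9 Rnu1b probe sets hold 3 value profiles and the 4 Rnu3b probe sets 1, so these are not 18 separate results. Rnu12, the U12 RNA of the minor spliceosome, had 7.19, 8.77 and 11.4 in the whole lung, against 6.36, 6.95 and 7.54 in the lobes. It rose by 2.38 ± 0.40 (limma adjusted p = 0.00112). Rnu3a is U3, a nucleolar RNA that acts in processing of the small-subunit precursor and is no spliceosomal RNA despite its symbol. It had 7.83, 9.11 and 11.9 in the whole lung, against 6.18, 7.03 and 8.78 in the lobes, and rose by 2.38 ± 0.40. The 9 Rnu1b probe sets, for copies of the U1 RNA that recognises the 5' splice site, rose by 1.92 to 2.06, and their 3 symbols cannot be told apart. Rnu6 (U6, in the spliceosome's catalytic centre) and Rnu7 (U7, which acts in histone mRNA 3' end formation) did not pass. Both were dim, with Rnu6 at 3.70 to 4.15 in the whole lung against 3.62 to 4.50 in the lobes, and a difference of 0.13 ± 0.08. Some called members were dim too, such as a Snord58b probe set at 3.86 to 4.29 in the whole lung, with a difference of 0.14 ± 0.05.

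Snord116 was not higher beyond its spread. It is an imprinted cluster of near-identical copies, best known from brain and from the Prader-Willi region in humans. None of its 24 probe sets was called, with a median difference of 0.07 and a smallest limma adjusted p of 0.71. Its mean over probe sets was 6.43 ± 0.79 in the whole lung, 5.91 ± 0.62 in the cardiac lobe and 6.84 ± 0.57 in the medial lobe (SD, n = 7 each). The copies share letters and value profiles, so they are not 24 separate results. Snorc was also not called, at 5.57 ± 0.11 in the whole lung and 5.47 ± 0.09 in the lobes (SD, n = 7 and 14).

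**Figure D2:**
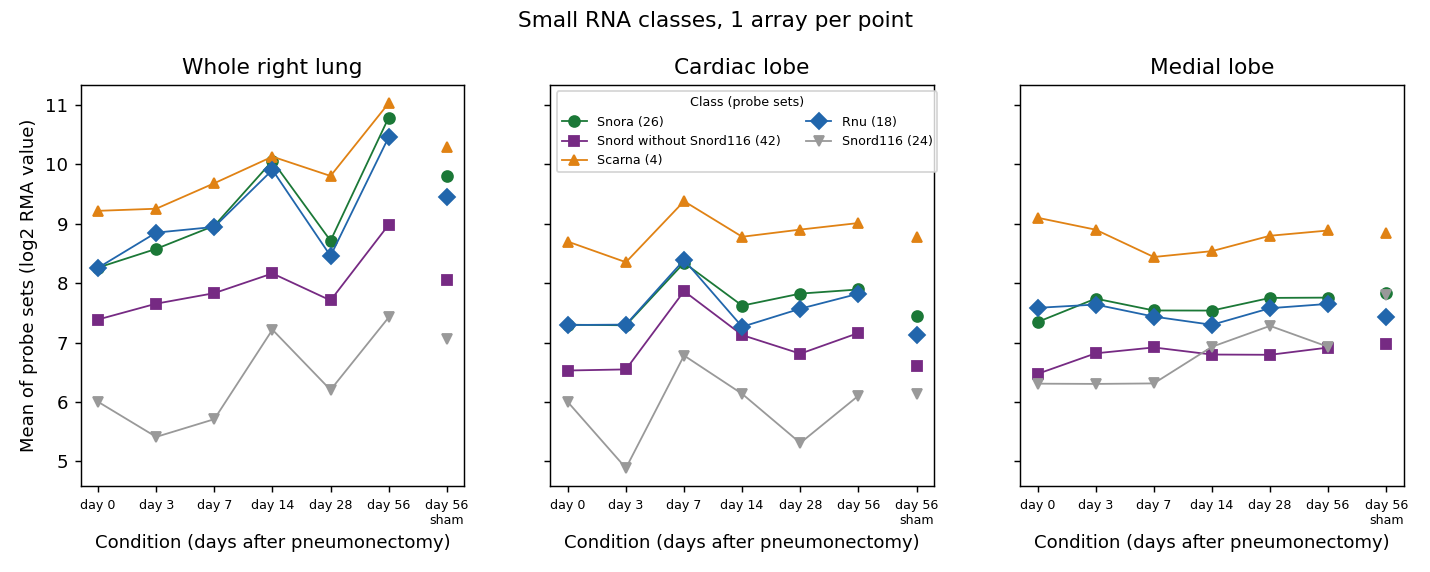
Mean log2 RMA value of each class (vertical axis) on each of the 21 arrays, by condition (horizontal axis) in the whole lung, the cardiac lobe and the medial lobe, 1 array per point with no error bar. The Snora, Snord without Snord116, Scarna and Rnu means are highest at day 56 after pneumonectomy in the whole lung and at day 7 in the cardiac lobe.

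Within the whole lung the arrays themselves differed widely. The mean of all 115 members was 7.48 at day 0, 7.62 at day 3, 7.87 at day 7, 8.72 at day 14, 7.79 at day 28 and 9.34 at day 56 after pneumonectomy, and 8.52 at day 56 after sham surgery. In the cardiac lobe it was 6.78, 6.54, 7.86, 7.10, 6.91 and 7.26 in the same order, and 6.85 after sham. In the medial lobe it was 6.89, 7.11, 7.06, 7.12, 7.29 and 7.28, and 7.47 after sham. These means include Snord116, which in the cardiac lobe averaged 6.00 at day 0 and 4.89 at day 3. Without Snord116 and Snorc the whole lung had 7.90, 8.23, 8.47, 9.15, 8.24 and 9.89, and 8.94 after sham. The cardiac lobe then had 7.003, 6.995, 8.18, 7.37, 7.35 and 7.59, and 7.05 after sham. The medial lobe had 7.07, 7.34, 7.27, 7.19, 7.32 and 7.39, and 7.40 after sham. Of 77 distinct profiles without Snord116 and Snorc, 67 had their highest whole lung value at day 56 after pneumonectomy and 50 their lowest at day 0. In the cardiac lobe, 58 of the 77 had their highest value at day 7. In the medial lobe the highest values were spread over all 7 arrays, with 3 to 18 of the 77 on each.

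The level of the members moved with the spread of values on an array. The interquartile range of all other probe sets was 3.58 ± 0.12 in the whole lung, 3.76 ± 0.10 in the cardiac lobe and 3.75 ± 0.04 in the medial lobe (SD, n = 7 each). The 2 arrays with a high members' mean for their region, day 56 after pneumonectomy in the whole lung and day 7 in the cardiac lobe, had the narrowest ranges of their regions, 3.38 and 3.54. Across the 7 arrays of a region, Pearson's r between the members' mean and the range was -0.89 in the whole lung (Spearman's rho -0.89), -0.91 in the cardiac lobe (rho -0.86) and 0.02 in the medial lobe (rho 0.07). Without the 2 arrays farthest from the median range, r was -0.72, -0.65 and 0.68 in that order. The medial value depended on Snord116. With Snord116 and Snorc left out of the mean, r over all 7 arrays was -0.91, -0.94 and -0.38 in the same order. Leaving out the 2 farthest arrays then gave -0.66, -0.70 and 0.40. These are descriptions over arrays that share a normalization. Singly, 64 of 115 members (55.7%) had r below -0.8 over all 21 arrays, against 4.64% of all probe sets.

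**Figure D3:**
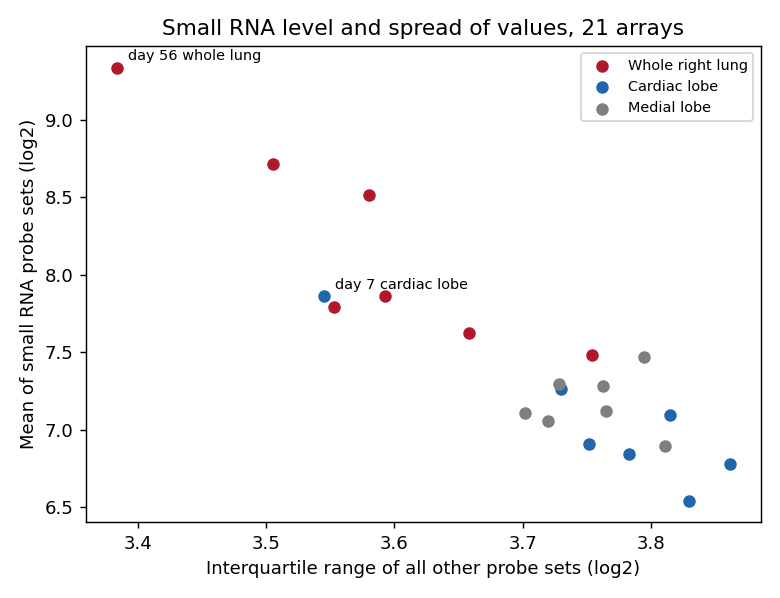
Mean of the 115 small RNA probe sets (vertical axis, log2) against the interquartile range of all other probe sets on the same array (horizontal axis, log2), 1 point per array, coloured by region. The day 56 whole lung array, at 3.38 and 9.34, and the day 7 cardiac lobe array, at 3.54 and 7.86, have the narrowest range of their regions.

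With the range as a covariate, the 6 members still called in the whole lung minus lobes comparison compare with 2.05% of all probe sets called in either direction under the same fit. They were Snord22 at 1.54 ± 0.22, Snora33 at 1.46 ± 0.33, Snord49b at 1.05 ± 0.21, Snord8 at 0.70 ± 0.15, and the several-symbol probe sets Snora28;Eif5 at 1.82 ± 0.22 and Snora24;Snhg8 at 1.72 ± 0.27. Without both arrays named above, 80 members were called, 77 of them among the 79. The share of all probe sets under that fit is not given here. What part the spread has in the difference was not tested.

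Some markers of other cells were also called in the whole lung. Of all 21789 probe sets with 1 symbol, 1717 were higher and 3990 lower. Of 9 adipocyte probe sets 3 rose, Retn by 1.09 ± 0.17 the most, with a list mean of 6.56 to 8.10 in the whole lung against 5.97 to 8.84 in the cardiac and 6.03 to 6.97 in the medial lobe. Only 2 of the 10 listed red cell genes were measured, and both probe sets rose (Alas2 by 0.60 ± 0.17). Their mean was 6.60 to 7.65 in the whole lung, 6.48 to 7.45 in the cardiac and 6.39 to 6.97 in the medial lobe. Of 10 lung markers 7 fell, Cdh5 by 0.52 ± 0.09 the most. Of 9 T and B cell probe sets 2 fell, with a list median of 0.06. No cardiac muscle or airway cartilage and smooth muscle marker was called. The part of these cell markers in the small RNA result was not tested.

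Few probe sets for the proteins of these RNAs' particles rose. Of all 21789 probe sets with 1 symbol, 1717 were called higher and 3990 lower. The falls in these lists were not tested against that share. The 8 probe sets for box C/D particle proteins read only 4 genes. None of these probe sets rose and 5 fell, with a median of -0.13. The falls repeat genes, with Snu13 probe sets called at -0.15 ± 0.04 and at -0.14 ± 0.04. Nop58, a core protein of those particles, fell by 0.26 ± 0.09. Of 4 for box H/ACA proteins 1 fell, Dkc1, the pseudouridine synthase, by 0.35 ± 0.11. Of 10 particle assembly factors 1 fell (Nufip1), and of 13 probe sets for Cajal body and SMN complex proteins 3 fell, with Coil, the Cajal body scaffold, down by 0.20 ± 0.05. Of 30 probe sets for Sm and other snRNP proteins (18 genes) 2 rose and 2 fell, with Snrpe up by 0.39 ± 0.08. Of 17 factors that transcribe small nuclear RNAs or form their 3' ends, 1 rose (Ints5) and 4 fell.

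Many probe sets for other non-coding RNAs rose in the whole lung, beside 1717 of all 21789 probe sets with 1 symbol. The 14 probe sets for non-coding host genes read 8 genes. Of these probe sets 8 rose and none fell, with Snhg17 up by 2.14 ± 0.31 and Gas5 by 1.23 ± 0.30. Of 10 probe sets for other structured RNAs 8 rose, among them Rny1 (a Y RNA) by 1.40 ± 0.17, Vaultrc5 (a vault RNA) by 1.26 ± 0.19 and Terc (the telomerase RNA) by 0.78 ± 0.08. Of 305 microRNA probe sets 85 rose and none fell, with a median of 0.10. Mir6516, whose hairpin is printed above, had a Pearson correlation of 0.971 with the members' mean over 21 arrays. It rose by 2.42 ± 0.38, the largest difference among the 305 microRNA probe sets, so it does not stand for them. Whether its probe set reads another RNA of the same place was not checked. The others of the 8 most alike were Snhg17, Vaultrc5, Rmrp (the RNA of RNase MRP), Gm12238, 5730408K05Rik, Hs3st6 and Rny1, the last with a correlation of 0.926.

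By the gene table, 51 of 59 symbols (Snorc left out) lie in 1 gene, 3 in several and 5 in none, namely Rnu12, Rnu3a, Rnu6, Rnu7 and Snord118. The strand of the host was not checked. For 27 symbols the host had a probe set of its own, and where it had several the brightest was read. Of these members 24 rose, with a median of 1.41 and a range of 0.21 to 2.90. Of their 23 hosts, all protein-coding, 4 rose and 2 fell (against the 23.7% of all probe sets called in either direction), with a median of -0.05 and a range of -0.27 to 0.42. The member's difference was above its host's in all 27, which was not tested. Several hosts are ribosomal protein genes with up to 14 probe sets, and the brightest may read another copy. Kept to the 17 symbols whose host had exactly 1 probe set, a choice made after the first values were seen, 15 members rose with a median of 1.10, while of 14 hosts 3 rose and 2 fell with a median of -0.09.

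Snora23 rose by 2.10 ± 0.35, while Ipo7 fell by 0.27 ± 0.07. Snord15a rose by 2.11 ± 0.45 and Snord15b by 1.78 ± 0.30, while their host Rps3 rose by 0.27 ± 0.05. Snord16a rose by 1.69 ± 0.21, and its host Rpl4, a ribosomal protein gene, differed by -0.03 ± 0.04. At the other end, Snord37 differed by 0.21 ± 0.09, and its host Eef2, a translation elongation factor, fell by 0.14 ± 0.04.

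**Figure D4:**
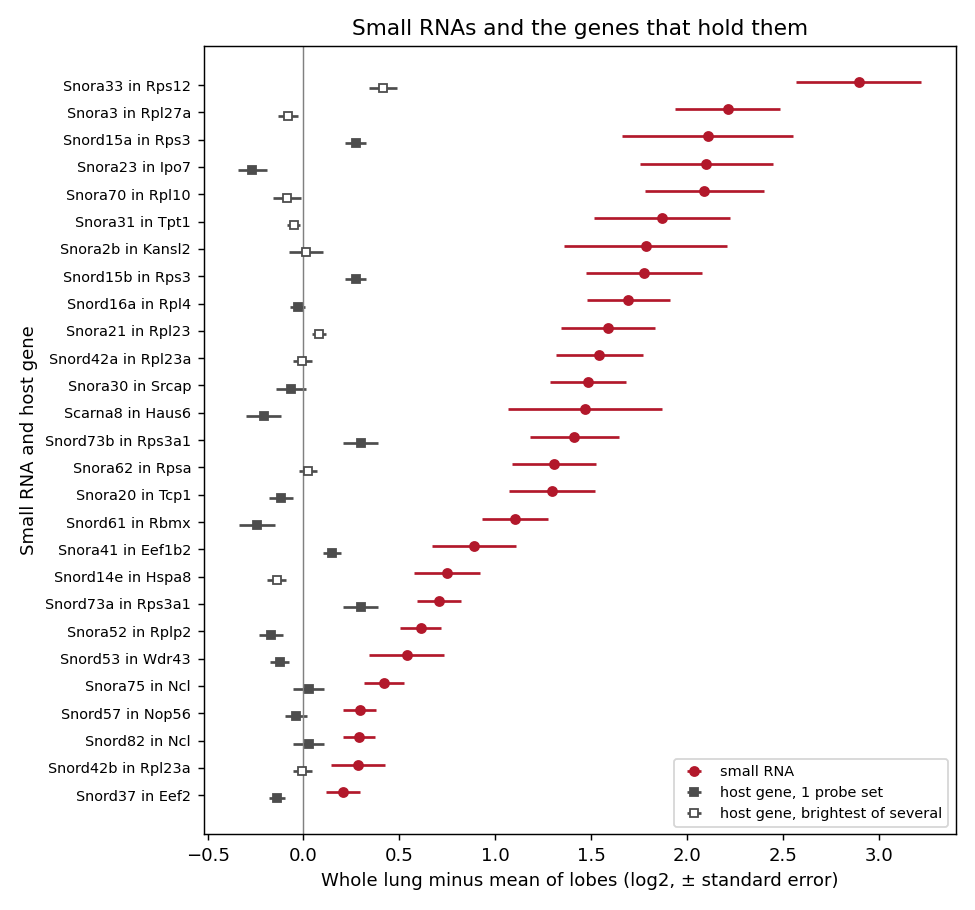
Whole lung minus the mean of the lobes (horizontal axis, log2, with standard errors) for 27 small RNAs (circles) and their host genes (squares), 1 pair per line. Filled squares are hosts with 1 probe set and open squares the brightest of several. Small RNAs run from 0.21 to 2.90 and hosts from -0.27 to 0.42.

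Between the lobes, no member was called in the cardiac lobe minus the medial lobe (limma, 26 at an unadjusted p under 0.05). Over all probe sets 0.503% were called and 8.75% had an unadjusted p under 0.05. Of the 26, 24 were Snord116 probe sets, lower in the cardiac lobe with a median of -0.95 and a standard error of 0.26 (limma adjusted p 0.175 to 0.305). Its most common profile had 4.89, 6.12 and 6.79 as lowest, median and highest in the cardiac lobe, against 6.33, 6.96 and 7.83 in the medial lobe, so the lobes overlapped. The cardiac maximum belongs to the day 7 array. Without that array and the day 56 whole lung array, all 24 were called, with a median of -1.19 (limma adjusted p 0.00382 to 0.0101). Without the day 7 cardiac array alone, 24 were called too. The 24 hold 7 profiles, and the share of all probe sets called under these fits is not given here. The other 2 of the 26 were Snora73a, 0.59 ± 0.24 higher in the cardiac lobe, and Snora73b, 0.61 ± 0.25 higher. Each had a limma adjusted p of 0.48.

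Across the 7 conditions no member passed limma's moderated F test (smallest adjusted p 0.056), while 3.77% of all probe sets did. At an unadjusted p under 0.05 there were 35 members, 24 of them Snord116 probe sets, against 16.6% of all probe sets. At day 3 against day 0, 1 member was called, Snord42b, which fell, against 3.25% of all probe sets in either direction and 1.12% lower. At day 7, 2 were called, Snord49b higher and Snord42b lower, against 4.13% in either direction, 1.91% higher and 2.23% lower. None was called at days 14, 28 and 56, where limma called 0.565%, 0% and 0.00281% of all probe sets. At an unadjusted p under 0.05 there were 16, 7 and 60 members at these days, against 9.3%, 7.12% and 12.7% of all probe sets. At day 56 after pneumonectomy against sham none was called, against 0.149% of all, with 14 members at an unadjusted p under 0.05 against 6.58% of all. These 5 comparisons with day 0 share its 3 arrays. Without the day 7 cardiac and day 56 whole lung arrays, 1 member was called at day 3 and 0 at day 7.

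Snord42b, a box C/D RNA held by the ribosomal protein gene Rpl23a, had 6.85 in the whole lung, 6.30 in the cardiac and 6.90 in the medial lobe at day 3. At day 0 it had 7.60, 7.65 and 7.82 in the same regions. The groups did not overlap, and it fell by 1.01 ± 0.25 (limma adjusted p = 0.0373). At day 7 it had 7.40, 6.19 and 6.51, a fall of 0.99 ± 0.25 (limma adjusted p = 0.0402). Snord42a, from the same host, averaged 6.11 ± 0.63 at day 3 and 6.11 ± 0.62 at day 0 (SD, n = 3 each). The day 3 call of Snord42b was lost without any 1 of the 3 day 0 arrays, the day 3 whole lung or cardiac array, the day 56 medial array or the sham cardiac array (limma adjusted p 0.0513 to 0.189). Its day 7 call was lost without any 1 of 12 arrays: all 3 of day 0 and of sham, the medial and cardiac of day 7, the day 56 medial, the day 28 cardiac, and the day 3 and day 14 whole lung (limma adjusted p 0.0502 to 0.227).

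Snord49b, a box C/D RNA in the non-coding gene 2410006H16Rik, had 12.04 in the whole lung, 11.6 in the cardiac and 11.4 in the medial lobe at day 7. At day 0 it had 11.8, 10.4 and 10.1. The values overlap across regions but were higher at day 7 in each, a rise of 0.90 ± 0.21 (limma adjusted p = 0.0302). The call was lost without the medial or cardiac array of day 0 or of day 7 (limma adjusted p 0.0723 to 0.159). At day 14 the difference was 0.88 ± 0.21 (limma adjusted p = 0.0908), at day 28 0.55 ± 0.21 and at day 56 1.14 ± 0.21 (limma adjusted p = 0.107). Snord49a, from the same host, averaged 7.84 ± 0.87 at day 7 and 6.56 ± 0.66 at day 0 (SD, n = 3 each).

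**Figure D5:**
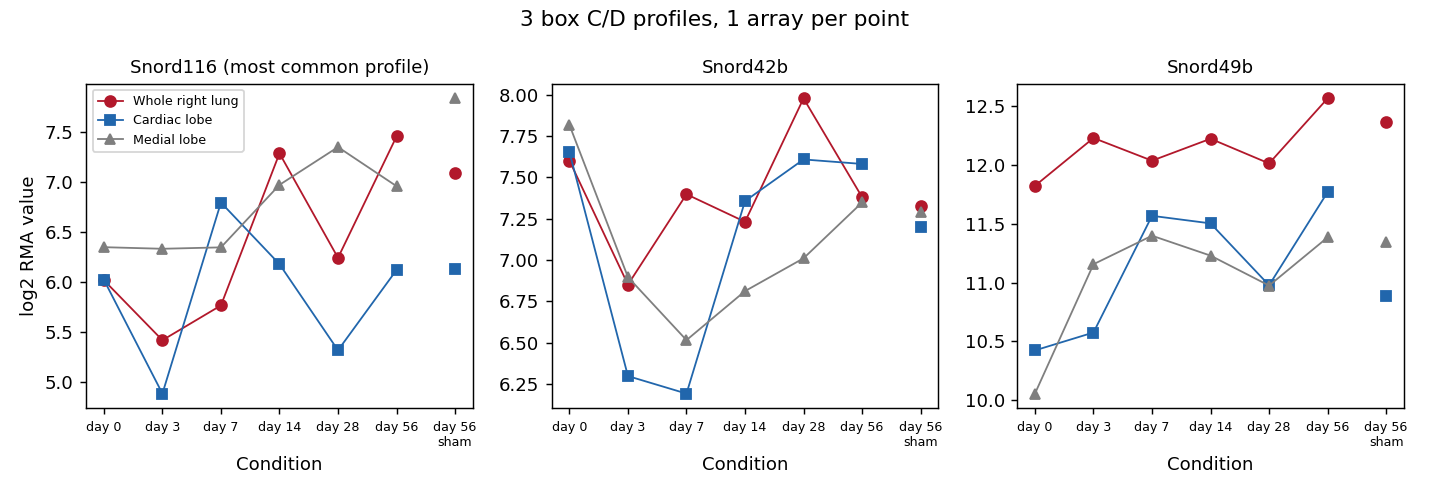
Log2 RMA value (vertical axis) of the most common Snord116 profile, Snord42b and Snord49b by condition (horizontal axis) in each region, 1 array per point with no error bar. Snord42b lies between 6.30 and 6.90 at day 3 and between 7.60 and 7.82 at day 0, and Snord49b is higher in the whole lung than in the lobes in every condition.

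Other members named for the smallest p in their comparison were not called. Snord35a averaged 9.90 ± 1.20 at day 56 after pneumonectomy and 8.41 ± 0.68 at day 0 (SD, n = 3 each), a difference of 1.495 ± 0.36 (limma adjusted p = 0.205). Snord22 differed by 1.24 ± 0.41 at day 14 (limma adjusted p = 0.294). Snord16a averaged 7.97 ± 1.73 at day 56 after pneumonectomy and 6.97 ± 1.08 after sham (SD, n = 3 each), a difference of 1.01 ± 0.38 (limma adjusted p = 0.656). Snord8 differed by 0.54 ± 0.21 between the same groups. The members' median difference was 0.12, 0.50, 0.66, 0.25 and 0.74 at days 3, 7, 14, 28 and 56 against day 0, and 0.42 at day 56 after pneumonectomy against sham. With the interquartile range as a covariate these medians were -0.25, -0.39, 0.11, -0.46, -0.06 and -0.01, so the direction over time was not stable to that choice. With sham in place of day 0 the medians at days 3, 7, 14 and 28 were -0.33, 0.13, 0.06 and -0.23. Without the day 7 cardiac array the day 7 median was 0.18. Without the day 56 whole lung array the median against sham was 0.03. The medians thus also moved with the baseline and with single arrays. All these medians include Snord116. In the main fit without it they were 0.21, 0.65, 0.61, 0.28 and 1.08 at days 3, 7, 14, 28 and 56 against day 0. At day 56 after pneumonectomy against sham the median without it was 0.48.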

How the data were processed

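The deposited table holds log2 values of 35556 probe sets on 21 arrays, made by the authors with RMA per the submitters' processing notes. The RMA settings are unknown here. The table had 0 columns of other samples. Symbols came from the platform annotation (21789 probe sets with 1 symbol, 1621 with several, 12146 with none). All arrays and probe sets entered 1 additive model with condition and region terms, in limma 3.58.1 (R 4.3.3), with 12 residual degrees of freedom and Benjamini-Hochberg adjustment within each comparison. Region is the replicate number of the labels and the block in this model. Named, among members with 1 symbol, were the 10 largest called rises in the whole lung, up to 5 between lobes and 3 per condition comparison (otherwise the 2 smallest p), and the brightest, most and least variable members. On simulated data, the whole lung comparison recovered 98 of 100 changes of 1 log2 unit and 77 of 100 of 0.5. Day 7 recovered 80 and 36. Each comparison also gave 7 calls among unchanged probe sets. The simulated noise was independent for each probe set and array, without the array-wide differences in spread seen here. These rates therefore do not measure recovery on the deposited arrays. RefSeq tables of GRCm38.p6 gave hosts and sequences. A planned set of histone probe sets matched 0 symbols. Members and lists were chosen with earlier results of these data known, and the rule for reading hosts with 1 probe set was added after the first host values.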

Additional observations from a re-analysis of the deposited data

Results flagged for a closer look

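In 78 sets of 7 arrays of a region, 10 had a highest or lowest array whose gap to the nearest other exceeded Dixon's critical share of the range. For independent sets chance alone gives about 1 in 20. These sets share arrays, and many are of members named from these data, so the count is only a description. The day 7 cardiac lobe array was the far one in 6 sets. It had the narrowest interquartile range of its region, 3.54, with 3.73 the nearest. It had the highest cardiac values of Snord118 (11.02, nearest 7.07), Snora33 (7.74, nearest 5.81), Snord15a (8.38, nearest 5.52), Snora73a (12.9, nearest 11.5) and Snora73b (12.9, nearest 11.3). The day 56 whole lung array after pneumonectomy had the highest whole lung value of Snora73b, 13.3, with 12.4 the nearest. The day 0 medial lobe array was lowest of its region for the mean of Snord probe sets without Snord116 (6.47, nearest 6.80), for Snord15a (4.97, nearest 5.33) and for Snord49b (10.1, nearest 10.97). Day 0 is the array group against which all days were set, and the Snord49b call at day 7 was lost without that array.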

How the results depend on the processing

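The 79 members called in the whole lung stayed within 72 to 83 when single arrays were left out and fell to 6 with the interquartile range as a covariate. Between lobes the count of 0 became 26 with that covariate, where 1.5% of all probe sets were called. It became 24 with array weights or without both doubted arrays (day 7 cardiac, day 56 whole lung). With single arrays left out it was 0 to 24, with 24 without the day 7 cardiac array. For the F test the count of 0 became 2 with 1 probe set per gene or at or above the median level, and 1 after centring or scaling. It became 23 with the covariate (5.76% of all probe sets), 31 with weights and 24 without both doubted arrays. With single arrays left out it was 0 to 24 (24 without the day 7 cardiac array). For the fits without the covariate the share of all probe sets called is not given here, so those counts have no background beside them. Without the replicate block, that is without the region term, the calls at day 3 (1) and day 7 (2) were 0. At day 3 lobes alone gave 0, sham in place of day 0 gave 2, and single arrays left out gave 0 to 1. At day 7, 1 probe set per gene or the median level gave 4, the covariate, both doubted arrays left out, or sham gave 0, and single arrays left out gave 0 to 15, with 15 without the day 7 whole lung array. At day 14 the count of 0 became 1 with 1 probe set per gene or weights and 2 without both doubted arrays, and 0 to 2 with single arrays left out (2 without the sham whole lung array). At day 56 against day 0 it became 1 with weights. Leaving out single arrays gave 0 at day 28 and in both day 56 comparisons. Snord49b at day 28 turned to -0.21 with sham in place of day 0. With 1 array per region and condition, array quality cannot be told apart from condition within a region. The cause of these changes was not tested.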
